A study of Homo sapiens with 6 samples.

Results

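Messenger RNA of 10 enzymes of glycolysis (HK1, HK2, GPI, PFKP, ALDOA, PGK1, ENO1, ENO2, PKM and LDHA) was followed across 6 RNA-seq libraries of a human osteosarcoma cell line. The genes were taken by their symbols from count tables of 19940 gene rows, and all 10 were found and tested. The cells were U2OS, a line from a bone tumour, that stably expressed GFP-DCP1A, a fluorescent form of an mRNA decapping cofactor that gathers in processing bodies, and they were kept under G418. Rescue cells spent 4 h in hypertonic medium with 300 mM Na+ and then 4 h in isotonic medium. Hypertonic cells were in medium with 300 mM Na+, made with concentrated phosphate-buffered saline, for 4 h. Isotonic cells were in medium with 150 mM Na+ for 4 h, after a mock addition of saline of the usual strength. Each group had 2 libraries of ribosome-depleted total RNA, and all libraries carried the transgene. Per the labels' protocols each sample was sequenced in duplicate, and separate cultures are not stated. The p-values therefore describe how the 2 libraries of each group scattered. In the rescue pair this may be technical scatter alone. The hypertonic and the isotonic pair scattered far more, as given below (SD 0.952 and 0.962 on the log2 scale, against 0.166 in rescue). The main model shares its spread over all groups, so this scatter enters the p-values of the rescue comparisons too.

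Glycolysis splits glucose into pyruvate and yields ATP without oxygen. Hexokinases trap glucose as glucose-6-phosphate, GPI isomerises it to fructose-6-phosphate, and phosphofructokinase commits the sugar to the pathway. Aldolase cleaves the product, phosphoglycerate kinase and pyruvate kinase form ATP, enolase makes phosphoenolpyruvate, and lactate dehydrogenase turns pyruvate into lactate while regenerating NAD+. Tumour cell lines are known for high expression of several of these enzymes, and HIF-1, the hypoxia-inducible transcription factor, binds sites with an RCGTG core near many of their genes.

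Library totals ran from 90196278 to 105991428 counts. Gene rows at 0 counts numbered 690 and 699 in the rescue libraries and from 1248 to 1653 in the others, so low rows were detected more often in rescue. The profiles of 4 libraries crossed their labels. Over 17388 genes, the library labelled hypertonic 1 differed from isotonic 2 by an SD of 0.195 on the log2 scale and hypertonic 2 from isotonic 1 by 0.183, whereas the SD was 0.952 between the hypertonic libraries, 0.962 between the isotonic libraries and 0.166 between the rescue libraries. NFAT5, the transcription factor of the osmotic response, had 430 and 164 CPM (a count scaled to the total of its library) in the libraries labelled hypertonic 1 and 2, and 157 and 457 CPM in those labelled isotonic 1 and 2. The amino acid transporter gene SLC38A2, induced by osmotic stress, had 2697 and 344 CPM in the libraries labelled hypertonic, and 341 and 2727 CPM in those labelled isotonic. SLC5A3, SLC6A6 and AKR1B1, which supply myo-inositol, taurine and sorbitol, were likewise high in hypertonic 1 and isotonic 2. The groups are kept as labelled, every gene is given in each library, and each fit is also given with either number left out of both groups. Of the bone markers, COL1A1, SPARC and RUNX2 were present, and SP7, COL1A2 and IBSP did not exceed 0.533 CPM. Summed over 8 leukocyte markers, levels were 24.4 to 26.0 CPM in rescue, 9.95 to 12.0 CPM in hypertonic and 9.57 to 13.8 CPM in isotonic libraries. Over 6 endothelial markers they were 47.4 to 48.3 CPM in rescue, 11.1 to 34.3 CPM in hypertonic and 11.5 to 34.7 CPM in isotonic libraries, and over 8 epithelial markers 471 to 496 CPM, 360 to 575 CPM and 363 to 567 CPM in the same order. KRT8 and KRT18 held most of the epithelial sum. EPCAM and CLDN4 did not exceed 22.4 CPM, and CDH1, KRT5, KRT14 and KRT19 did not exceed 3.26 CPM. The part of all these markers in the results was not tested.

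All 10 enzymes were expressed in every library, with 2695 to 174289 counts per gene and library, so that the counting error of a single value was at most 1.93%. Together they made up 4788 and 4520 CPM in the rescue libraries, 5431 and 4791 CPM in the libraries labelled hypertonic, and 4787 and 5344 CPM in those labelled isotonic. The lowest sum was that of rescue 2, and the highest sums were those of hypertonic 1 and isotonic 2. ENO1 and PKM held 64.0% and 64.1% of this sum in the rescue libraries, 56.8% and 59.5% in the hypertonic libraries and 59.4% and 56.5% in the isotonic libraries. Per kb of merged exon (mean CPM over 6 libraries), ENO1 stood highest at 273, ahead of PKM at 177, LDHA at 121, ALDOA at 96.1 and PGK1 at 56.3. HK1 at 24.4, PFKP at 21.3 and GPI at 18.0 followed, and HK2 at 9.49 and ENO2 at 8.37 were lowest. HK1 and PFKP stood below GPI in the rescue libraries, where the mean CPM per kb was 15.4 for HK1, 12.6 for PFKP and 17.0 for GPI. Whether the deposited counts include introns is not given in the sources used here, so these levels per kb are approximate.

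**Figure D1:**
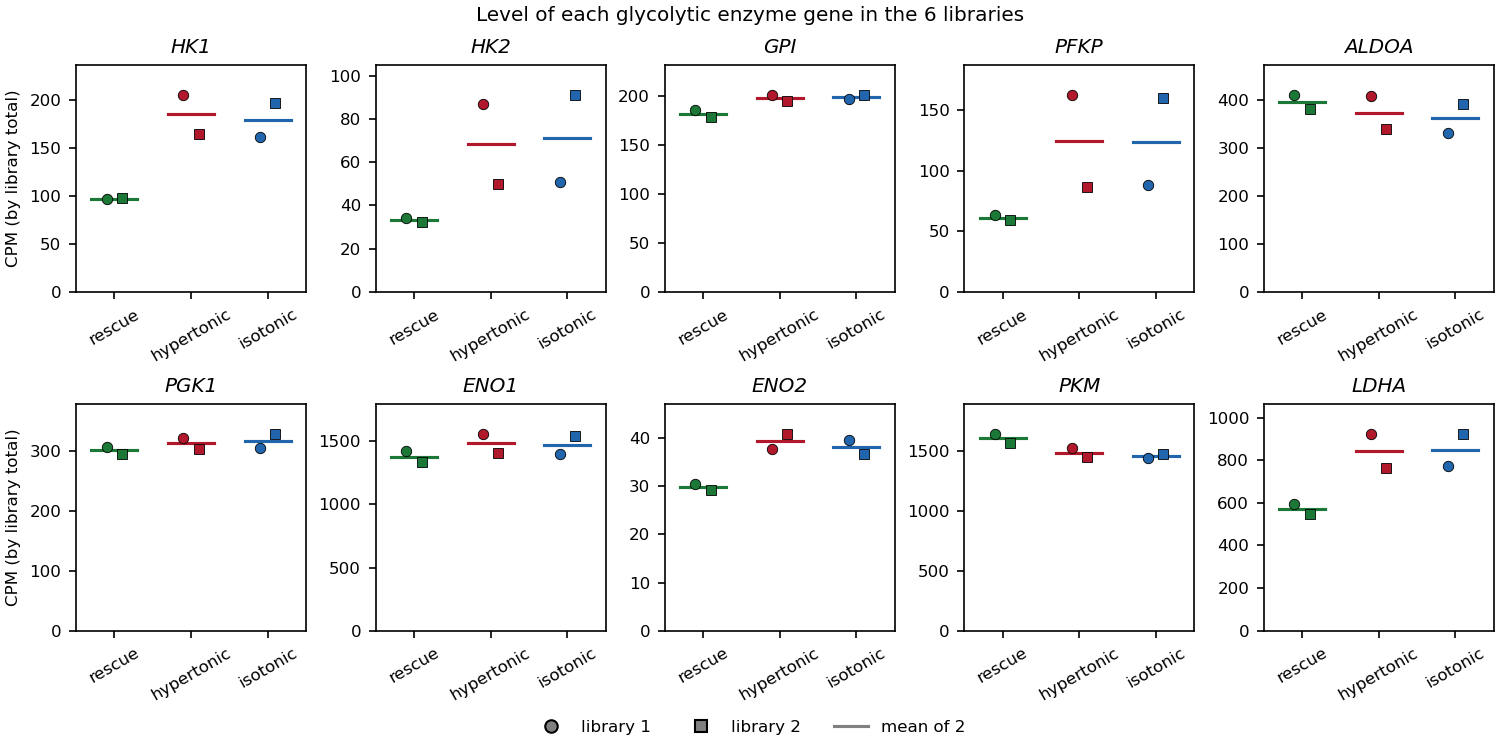
Level of each of the 10 glycolytic enzyme genes, in CPM by library total, in the 2 rescue, 2 hypertonic and 2 isotonic libraries (circles, library 1; squares, library 2; lines, mean of 2). HK1, HK2, PFKP and LDHA lie lowest in both rescue libraries, and hypertonic 1 lies beside isotonic 2, and hypertonic 2 beside isotonic 1, in most panels.

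HK1, HK2 and PFKP, which act in the first steps, varied most of the 10. HK1 (ENSG00000156515, GRCh38 chr10:69269984-69401884, plus strand), the hexokinase found in most tissues, had 96.6 and 97.4 CPM in the rescue libraries, 205 and 164 CPM in the libraries labelled hypertonic, and 161 and 197 CPM in those labelled isotonic. Both rescue libraries were below all 4 others, and the hypertonic and isotonic ranges overlapped. In these bulk libraries fewer cells with a transcript and less of it per cell cannot be told apart. HK2 (ENSG00000159399, chr2:74833981-74893359, plus strand), the inducible hexokinase of muscle and tumours, had 34.3 and 32.2 CPM in the rescue libraries, 86.8 and 49.7 CPM in the hypertonic libraries, and 50.8 and 91.1 CPM in the isotonic libraries. Its highest library, isotonic 2, was 2.83 times its lowest, rescue 2, the widest range among the 10 enzymes. PFKP (ENSG00000067057, chr10:3066333-3137712, plus strand), the platelet-type phosphofructokinase, had 63.4 and 59.0 CPM in rescue, 162 and 86.5 CPM in hypertonic, and 87.8 and 160 CPM in isotonic libraries. HK1, HK2 and PFKP therefore had the same order of libraries, with rescue lowest, hypertonic 2 and isotonic 1 in the middle, and hypertonic 1 and isotonic 2 highest. GPI (ENSG00000105220, chr19:34359480-34402413, plus strand), the isomerase between these steps, had 186 and 178 CPM in rescue, 200.5 and 194 CPM in hypertonic, and 196 and 201 CPM in isotonic libraries. Both rescue values were below the other 4, and the order of libraries was that of HK1, HK2 and PFKP, but the highest library was only 1.13 times the lowest.

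Among the later steps LDHA and ENO2 had the widest ranges. ALDOA (ENSG00000149925, chr16:30064164-30070457, plus strand), the main aldolase outside liver, had 410.2 and 381 CPM in rescue, 407 and 339 CPM in hypertonic, and 331 and 391 CPM in isotonic libraries, and all 3 groups overlapped. PGK1 (ENSG00000102144, chrX:77910739-78129296, plus strand), phosphoglycerate kinase, had 307 and 295 CPM in rescue, 322 and 304 CPM in hypertonic, and 305 and 329 CPM in isotonic libraries, the narrowest range of the 10 at 1.12 times. Its groups overlapped as well. ENO1 (ENSG00000074800, chr1:8861000-8879250, minus strand), the common enolase, had 1422 and 1332 CPM in rescue, 1560.1 and 1404 CPM in hypertonic, and 1402 and 1540 CPM in isotonic libraries. Rescue 1 lay within the range of the other groups. ENO2 (ENSG00000111674, chr12:6913745-6923698, plus strand), the enolase of neurons, had 30.6 and 29.3 CPM in rescue, 37.8 and 41.0 CPM in hypertonic, and 39.7 and 36.7 CPM in isotonic libraries. Both rescue libraries were below the other 4, and ENO2 alone of the 10 was lower in hypertonic 1 and isotonic 2 than in hypertonic 2 and isotonic 1. PKM (ENSG00000067225, chr15:72199029-72231822, minus strand), pyruvate kinase of muscle and most tumours, had 1644 and 1567 CPM in rescue, 1524 and 1446 CPM in hypertonic, and 1440 and 1478 CPM in isotonic libraries. It was the only one of the 10 whose rescue libraries both exceeded the other 4 in CPM by library total. LDHA (ENSG00000134333, chr11:18394388-18408425, plus strand), the lactate-forming dehydrogenase subunit, had 594 and 549 CPM in rescue, 925 and 762 CPM in hypertonic, and 773 and 922 CPM in isotonic libraries. Its order of libraries was that of HK1, HK2 and PFKP, over a range of 1.68 times.

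The remaining steps of the pathway were read for comparison. GAPDH, which oxidises glyceraldehyde-3-phosphate, had 3400 and 3188 CPM in rescue, 3129 and 2701 CPM in hypertonic, and 2715 and 3087 CPM in isotonic libraries. TPI1, triosephosphate isomerase, had 374 and 349 CPM in rescue, 445 and 340.3 CPM in hypertonic, and 339 and 442 CPM in isotonic libraries, so the groups overlapped. GAPDH was higher in both rescue libraries than in the other 4 in CPM by library total, but neither gene passed the test in any comparison.

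The promoters of HK2, PFKP and LDHA are shown as examples of genes with the order of libraries described above and ACGTG in them. That of ENO2 is shown because its order differed. GPI had the order of HK2, over a range of 1.13 times, and 1 ACGTG in its window, and is not shown. Each window runs from 250 bases before to 50 bases after a RefSeq transcript start on GRCh38.p14, plus strand, and capitals mark ACGTG on either strand (read as CACGT on the strand shown), one form of the RCGTG core of HIF-1 sites, with CACGTG where the 2 orientations overlap.
HK2, chr2:74833877-74834176: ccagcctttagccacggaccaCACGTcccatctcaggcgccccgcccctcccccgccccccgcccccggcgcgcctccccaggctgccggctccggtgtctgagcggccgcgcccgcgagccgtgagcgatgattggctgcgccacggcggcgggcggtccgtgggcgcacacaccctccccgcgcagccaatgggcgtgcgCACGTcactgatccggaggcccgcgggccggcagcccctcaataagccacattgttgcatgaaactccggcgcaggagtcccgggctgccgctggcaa
HK2, second start, chr2:74834920-74835219: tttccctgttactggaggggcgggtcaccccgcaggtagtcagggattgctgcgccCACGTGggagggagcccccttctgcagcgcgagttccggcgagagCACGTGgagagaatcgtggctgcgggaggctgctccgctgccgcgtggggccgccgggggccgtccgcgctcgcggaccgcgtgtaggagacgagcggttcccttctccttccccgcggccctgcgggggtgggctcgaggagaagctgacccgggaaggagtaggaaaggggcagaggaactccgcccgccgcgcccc
PFKP, chr10:3068939-3069238: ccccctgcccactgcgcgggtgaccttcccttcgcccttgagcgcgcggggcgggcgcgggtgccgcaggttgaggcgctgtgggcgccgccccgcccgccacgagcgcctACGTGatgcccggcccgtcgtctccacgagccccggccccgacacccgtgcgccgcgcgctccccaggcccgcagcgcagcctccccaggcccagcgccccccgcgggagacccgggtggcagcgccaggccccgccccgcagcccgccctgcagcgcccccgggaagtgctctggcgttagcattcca
LDHA, chr11:18394313-18394612: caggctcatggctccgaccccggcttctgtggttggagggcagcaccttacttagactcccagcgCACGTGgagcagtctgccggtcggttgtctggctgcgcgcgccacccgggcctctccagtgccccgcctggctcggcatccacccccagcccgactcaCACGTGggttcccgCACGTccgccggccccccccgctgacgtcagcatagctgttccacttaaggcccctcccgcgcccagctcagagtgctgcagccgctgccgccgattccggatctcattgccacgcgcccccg
ENO2, chr12:6914330-6914629: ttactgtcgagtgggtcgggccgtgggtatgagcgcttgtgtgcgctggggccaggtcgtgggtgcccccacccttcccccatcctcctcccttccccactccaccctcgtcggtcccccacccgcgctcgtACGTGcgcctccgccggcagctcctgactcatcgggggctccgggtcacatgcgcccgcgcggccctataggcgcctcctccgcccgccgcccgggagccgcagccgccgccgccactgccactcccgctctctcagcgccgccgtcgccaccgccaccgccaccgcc
The form GCGTG was not searched. ACGTG occurred 2 times in the first HK2 window, 4 times in the second, 5 times in the LDHA window, and 1 time each in the PFKP and ENO2 windows shown. The other RefSeq windows of PFKP and LDHA held none. The 6-letter palindrome CACGTG, which contains ACGTG on both strands, occurred 2 times in the second HK2 window, 2 times in the LDHA window shown and 1 time in a window of ALDOA. It was in a window of 3 of the 10 genes, against 8.8% of genes. The 10 genes had 23 windows in all. Of the 10, 7 (HK2, GPI, PFKP, ALDOA, PGK1, ENO2 and LDHA) had ACGTG in at least 1 window, against 24.9% of 27305 genes with a RefSeq window. Of 35116 single windows, 21.4% held it. A gene with more windows has more chances to hold such letters, and the shares of genes are not corrected for this. HK1, which had the same order of libraries as HK2, had no window with these letters, nor had ENO1 and PKM. TGGAAA or its complement TTTCCA, the core that NFAT5 sites share, was in a window of 4 of the 10, against 24.5% of genes. The 7 genes with ACGTG include HK2 and PFKP, whose levels varied most, and GPI and PGK1, whose levels varied least.

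The comparison of hypertonic with isotonic libraries asks what 4 h of raised sodium did. None of the 10 enzymes passed, nor did any of the 18208 genes tested, a background of 0.0% in each direction (edgeR quasi-likelihood test on TMM-scaled counts, Benjamini-Hochberg adjusted p under 0.05). Without adjustment 52 genes had a p under 0.05. DESeq2 called 1 gene and limma voom none. The fitted log2 fold changes of the enzymes ran from -0.05 for HK2 to 0.05 for ALDOA, with SEs of 0.12 for ENO2 to 0.49 for PFKP. In CPM by library total no enzyme separated the groups, where 2.59% of genes were higher and 3.05% lower in both hypertonic libraries. In TMM-scaled CPM ENO2 alone did, being higher in both hypertonic libraries (42.7 and 41.8 CPM, against 40.2 and 41.3 CPM in isotonic libraries), where 3.09% of genes were higher and 2.74% lower.

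Within each replicate number the libraries differed in opposite directions. The level in hypertonic 1 was 1.85 times that in isotonic 1 for PFKP, 1.71 times for HK2, 1.27 times for HK1, 1.23 times for ALDOA and 1.20 times for LDHA. In number 1, 9 of 10 enzymes were higher in the hypertonic library, all but ENO2, where 40.4% of all genes tested were higher. In number 2 the same 9 were lower in the hypertonic library, where 41.0% of all genes were lower. HK2 and PFKP were past 1.5-fold in both numbers, as were 16.8% of genes upward in number 1 and 17.4% downward in number 2. With isotonic 2 and hypertonic 2 left out, the same model called 9 enzymes higher in the hypertonic library, against 31.6% of genes. PFKP then had a log2 fold change of 1.05 (adjusted p = 1.05e-34), HK2 of 0.93, HK1 of 0.51, ALDOA of 0.46, LDHA of 0.42 and ENO1 of 0.31, and GPI, PGK1 and PKM had 0.19 to 0.24. With isotonic 1 and hypertonic 1 left out, the model found 8 enzymes lower in the hypertonic library, against 31.0% of genes, with -1.03 for PFKP (adjusted p = 1.66e-33), -1.02 for HK2, -0.42 for LDHA and -0.40 for HK1. In these edgeR fits the lone hypertonic and isotonic libraries were assumed to vary like the rescue pair, so their p-values carry no replicate check. A rise and a fall of these enzymes with raised sodium cannot be told apart while the labels of these 4 libraries are in doubt.

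**Figure D2:**
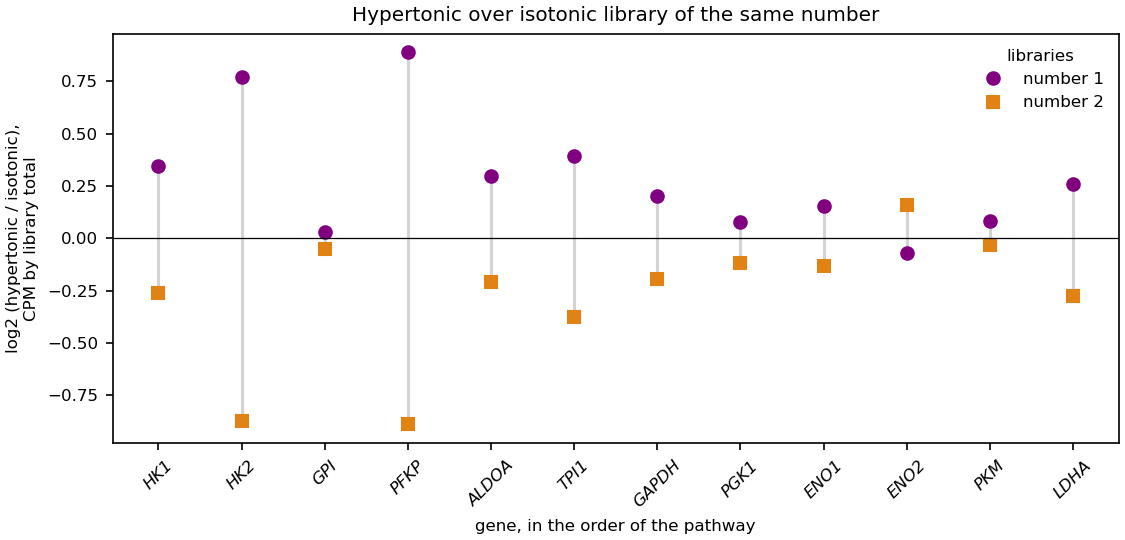
Log2 ratio of the hypertonic to the isotonic library of the same number, in CPM by library total, for the 10 enzymes with TPI1 and GAPDH, in pathway order (circles, number 1; squares, number 2; no error bars, since each ratio is of 2 single libraries). The numbers lie on opposite sides of 0 for every gene, and PFKP and HK2 are farthest from 0.

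The comparison of rescue with isotonic libraries asks how cells 4 h after the return to isotonic medium differed from those kept in it. Rescue libraries followed 4 h of treatment and 4 h of rescue, and isotonic and hypertonic libraries 4 h of treatment alone. The added time and the second change of medium therefore cannot be told apart from rescue. CPM here is by library total, and log2 fold changes are from the TMM-scaled fit except where library totals are named. The 2 scales differ in size. HK1 fell in rescue to 97.0 ± 0.6 CPM, against 179 ± 25.2 CPM in isotonic cells (SD, n = 2 each). With TMM scaling its log2 fold change was -1.19 ± 0.23 (SE) or 2.28 times lower (edgeR adjusted p = 0.0308). By library totals it was -0.88. ENO2 fell to 29.9 ± 0.91 CPM, against 38.2 ± 2.13 CPM in isotonic cells. Its log2 fold change was -0.64 ± 0.12 with TMM scaling (edgeR adjusted p = 0.0249) and -0.35 by library totals. With TMM scaling HK1 and ENO2 were 2 of 10 enzymes, where 13.5% of all genes were called lower. None was called higher, where 9.61% were. LDHA missed the threshold with 572 ± 31.8 CPM in rescue, against 847 ± 105 CPM in isotonic cells. Its log2 fold change was -0.87 ± 0.22 with TMM scaling (edgeR adjusted p = 0.0531) and -0.57 by library totals. HK2 (-1.41 ± 0.48, adjusted p = 0.103) and PFKP (-1.34 ± 0.50, adjusted p = 0.129) had larger fold changes than HK1 and wider errors, their isotonic libraries being 50.8 and 91.1 CPM for HK2 and 87.8 and 160 CPM for PFKP. GPI, ENO1 and PGK1 had log2 fold changes of -0.43, -0.40 and -0.37, and ALDOA and PKM of -0.17 and -0.16, with edgeR adjusted p of 0.0751 for GPI and 0.601 for ALDOA at the ends of their range. The median of the 10 was -0.53, against -0.02 over all genes tested. Medians of the other pathway lists read below ran from -0.68 to 0.48. The lowest was that of the polyol, glycerol and hexosamine branches, and that of glycogen metabolism was -0.54. The highest was that of the PFKFB enzymes and TIGAR.

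The 2 calls depended on single libraries and on scaling. HK1 kept its call in at least 1 of the fits that left out a hypertonic library. For HK1 the adjusted p was 0.0567 without isotonic 1, 0.092 without isotonic 2, 0.212 without rescue 1 and 0.221 without rescue 2, and no gene at all was called in those 4 fits. For ENO2 it was 0.0515 to 0.237 over the 6 fits that left out 1 library, so the call was lost in each: without hypertonic 2 (0.0515), hypertonic 1 (0.0542), isotonic 1 (0.0826), isotonic 2 (0.104), rescue 1 (0.206) and rescue 2 (0.237). With upper quartile scaling the edgeR adjusted p was 0.0517 for HK1 and 0.0697 for ENO2, so that 0 of 10 passed, against 7.71% of genes called lower. By library totals it was 0.0344 for HK1 and 0.152 for ENO2, so that 1 passed, against 6.02% of genes. LDHA passed with limma voom (adjusted p = 0.0496), as did HK1 and ENO2, and in edgeR with only the 4 libraries compared (0.0489), where HK1 kept its call (0.0353) and ENO2 lost it (0.0566). DESeq2 called 6 of the 10 lower (HK1, HK2, GPI, PFKP, ENO2 and LDHA), against 20.7% of genes. Scaling also moved the whole comparison: 1749 genes were called higher and 2453 lower with TMM, against 2091 and 1404 with upper quartile scaling and 2051 and 1096 by library totals, and the median log2 fold change of all genes was -0.02, 0.19 and 0.27 under these scalings. Under upper quartile scaling and library totals ALDOA (0.04 and 0.13) and PKM (0.05 and 0.14) turned positive in rescue over isotonic, and the other 8 remained negative. With TMM, HK2, PFKP and HK1 lay at percentiles 3.04, 3.68 and 5.54 of the log2 fold changes of all genes, counted from the lowest. LDHA and ENO2 lay at 12.9 and 21.2, GPI, ENO1 and PGK1 at 30.7 to 33.3, and ALDOA and PKM at 42.9 and 43.5. Relative to the median of all genes, below which lie by definition as many genes as above it, all 10 enzymes were lower. Subtracting that median removes most of the effect of scaling. TMM, upper quartile, library totals and DESeq2 scaling therefore gave this result alike by construction and are not separate checks of it.

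Rescue and isotonic libraries often did not overlap among all genes, so each count of enzymes stands beside the share of genes in that direction. In CPM by library total, 6 enzymes were lower in both rescue libraries than in both isotonic libraries (HK1, HK2, GPI, PFKP, ENO2 and LDHA), against 22.8% of all genes, and PKM was higher, against 48.6%. In TMM-scaled CPM 9 were lower, all but ALDOA, against 35.0% of genes. With isotonic 2 and hypertonic 2 left out, the edgeR fit called 8 enzymes lower in rescue than in isotonic cells, against 38.6% of genes, all but ALDOA (0.04) and PKM (-0.06). Without isotonic 1 and hypertonic 1, all 10 were called lower, against 40.1% of genes. HK1 then had a log2 fold change of -0.95 and -1.39 in these fits, so that it was lower in rescue whichever isotonic library was used.

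The comparison of rescue with hypertonic libraries asks how cells 4 h after the return to isotonic medium differed from cells still in raised sodium. It shares the rescue libraries with the comparison above. HK1 fell to 97.0 ± 0.6 CPM by library total in rescue, against 185 ± 28.9 CPM in hypertonic cells (SD, n = 2 each). Its log2 fold change was -1.24 ± 0.23 with TMM scaling (edgeR adjusted p = 0.0278) and -0.93 by library totals. ENO2 fell to 29.9 ± 0.91 CPM, against 39.4 ± 2.22 CPM in hypertonic cells. Its log2 fold change was -0.70 ± 0.12 with TMM scaling (edgeR adjusted p = 0.0209) and -0.40 by library totals. With TMM scaling HK1 and ENO2 were 2 of 10, where 13.8% of all genes were called lower. None was higher, where 9.86% were. LDHA had -0.87 ± 0.22 (edgeR adjusted p = 0.0522), HK2 -1.36 ± 0.47 and PFKP -1.35 ± 0.50, and the others ran from -0.42 for GPI to -0.19 for PKM.

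Without hypertonic 1 the adjusted p in rescue over hypertonic was 0.0854 for HK1 and 0.0938 for ENO2, and without hypertonic 2 it was 0.0526 and 0.0741. Without rescue 1 it was 0.201 and 0.190, and without rescue 2 it was 0.2101 and 0.216. HK1 and ENO2 each kept the call in at least 1 of the fits that left out an isotonic library. Under upper quartile scaling HK1 kept its call (edgeR adjusted p = 0.0455) and ENO2 lost it (0.0532), where 7.95% of genes were called lower. By library totals HK1 kept it (0.0309) and ENO2 lost it (0.120), where 6.03% were. LDHA passed with limma voom (adjusted p = 0.0482), as did HK1 and ENO2. DESeq2 called the same 6 as above, against 20.8%. Of all called genes, 1796 were higher and 2508 lower with TMM, against 2137 and 1448 with upper quartile scaling and 2109 and 1098 by library totals. PKM turned positive under both other scalings (0.02 and 0.11) and ALDOA by library totals (0.09). In CPM by library total 6 enzymes were lower in both rescue than in both hypertonic libraries, against 22.8% of genes, and PKM was higher, against 49.1%; in TMM-scaled CPM 9 were lower, against 35.2%. With hypertonic 2 and isotonic 2 left out, edgeR called 10 lower, against 40.5% of genes, and with hypertonic 1 and isotonic 1 left out, 8 lower, against 38.6%.

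**Figure D3:**
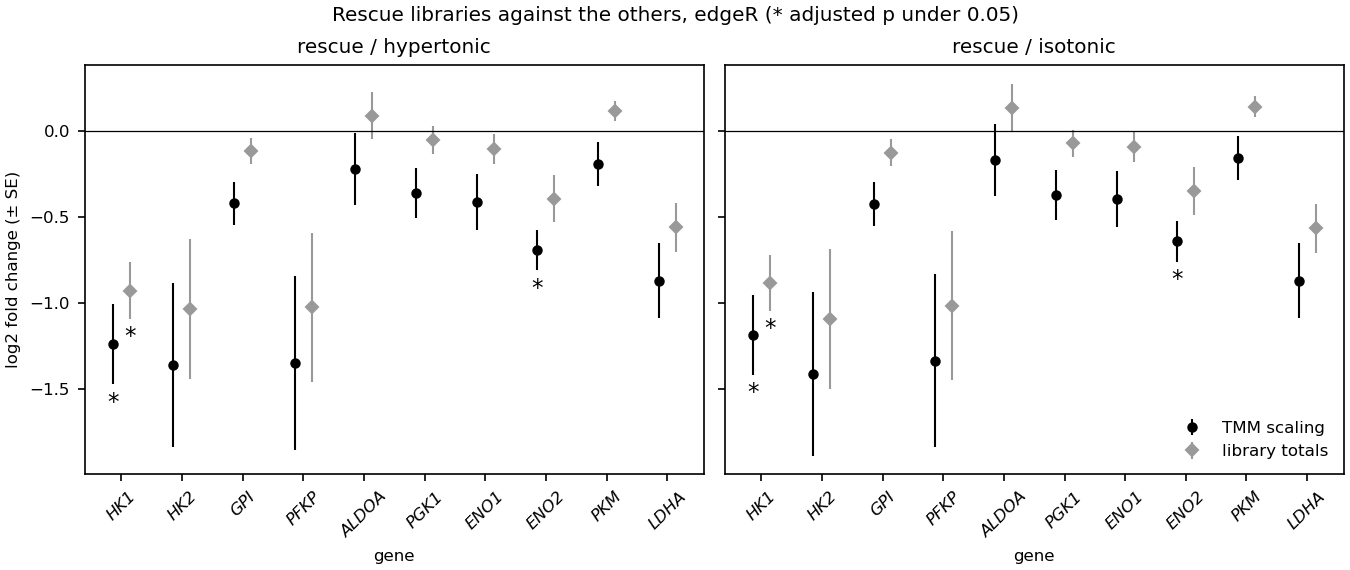
Log2 fold changes of the 10 enzymes in rescue over hypertonic (left) and rescue over isotonic (right) libraries from edgeR, with TMM scaling (black circles) and by library totals (grey diamonds). Bars are SEs and asterisks mark adjusted p under 0.05. HK1 and ENO2 carry asterisks with TMM scaling, HK1 also by library totals, and ALDOA and PKM lie on opposite sides of 0 under the 2 scalings.

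Ratios of isozyme counts within a library do not depend on its scaling. They are not corrected for gene length, so they were compared between libraries only, with no test. The ratio of PFKP to PFKL, the liver-type phosphofructokinase, was 1.25 and 1.18 in rescue, 2.38 and 1.03 in hypertonic, and 1.06 and 2.41 in isotonic libraries. The rescue values lay between the low and the high libraries of the other groups. PFKP made up 40.8% of the counts of PFKP, PFKL and PFKM in rescue 1 (95% Wilson interval 40.0% to 41.5%) and 39.7% in rescue 2 (38.9% to 40.5%). In the libraries labelled hypertonic it made up 60.1% (59.5% to 60.7%) and 39.2% (38.6% to 39.9%), and in those labelled isotonic 40.0% (39.4% to 40.7%) and 60.6% (60.0% to 61.2%). These intervals cover counting error only. PFKP thus held most of the counts of the 3 genes in hypertonic 1 and isotonic 2, and a share near that of rescue in hypertonic 2 and isotonic 1.

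The ratio of HK2 to HK1 was 0.355 and 0.330 in rescue, 0.423 and 0.303 in hypertonic, and 0.315 and 0.463 in isotonic libraries, and the rescue values lay within the range of the other 4. The ratio of LDHA to LDHB, the subunit that favours pyruvate formation, was 1.67 and 1.61 in rescue, 2.36 and 1.81 in hypertonic, and 1.80 and 2.34 in isotonic libraries, lowest in both rescue libraries. The ratio of ENO2 to ENO1 was 0.0215 and 0.0220 in rescue, 0.0242 and 0.0292 in hypertonic, and 0.0283 and 0.0238 in isotonic libraries, again lowest in rescue. The ratio of ALDOC, the aldolase of brain, to ALDOA was 0.0399 and 0.0413 in rescue, 0.0280 and 0.0284 in hypertonic, and 0.0280 and 0.0288 in isotonic libraries. ALDOC is overlapped on the same strand by the row AC005726.1, so its reads may not be separated from that row. The ratio of ALDOC to ALDOA was the only one of these that was highest in rescue and nearly equal in the other 4.

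**Figure D4:**
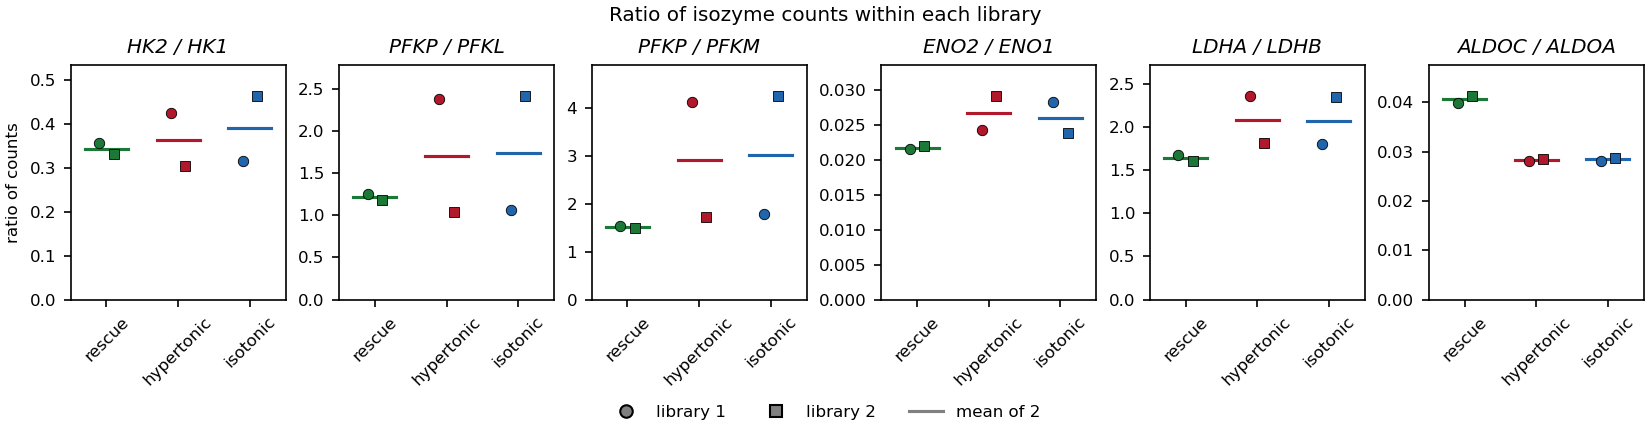
Ratio of the counts of 2 isozymes within each of the 6 libraries (circles, library 1; squares, library 2; lines, mean of 2), not corrected for gene length. PFKP over PFKL and over PFKM is high in hypertonic 1 and isotonic 2, LDHA over LDHB is lowest in rescue, and ALDOC over ALDOA is highest in rescue.

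Some rows overlap neighbours. The row AC093512.2 overlaps 6257 bases of ALDOA on the same strand and held 100.4% to 101.3% of the ALDOA count in each library, so the counts of the 2 rows were nearly equal. Whether they hold the same reads was not tested. AC092073.1, on the strand of GPI, overlaps it by 6099 bases and held 47.4% to 49.5% of its count. ATP7A, on the strand of PGK1, overlaps it by 139657 bases, 97 of them in exons of PGK1, and held 9.38% to 13.2% of its count. ENO2 overlaps LRRC23 by 499 bases, of which 98 lie in exons of ENO2. LRRC23 had 28.1 and 26.1 CPM in rescue, 42.7 and 25.0 CPM in hypertonic, and 27.1 and 41.9 CPM in isotonic libraries and passed no test. It was high in hypertonic 1 and isotonic 2, where ENO2 was low, and its part in the ENO2 count was not tested. Annotated pseudogenes named after the gene numbered 6 for LDHA, 5 for PKM, 4 for ENO1, 2 for ALDOA and 1 each for HK2 and PGK1, and how the authors' counting placed reads shared with them is not given in the sources used here.

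Genes with the most similar pattern were sought by the root mean square (RMS) difference of centred log2 CPM over the 6 libraries, among 13154 genes that averaged 5 CPM or more and among 71 such genes of the pathway lists. As a description, HK2 and PFKP were each other's nearest pathway gene, with an RMS difference of 0.0455. Over all genes TUBA1A, an alpha-tubulin gene, lay nearest to HK2 (0.0406), with 72.4 and 67.7 CPM in rescue, 194 and 109 CPM in hypertonic, and 107 and 187 CPM in isotonic libraries. RASSF2 lay nearest to HK1 (0.0238), DHX9, an RNA helicase gene, to LDHA (0.0227), and SHC1, an adaptor gene of receptor signalling, to ENO2 (0.0140). Within the pathway the glycogen synthase gene GYS1 lay nearest to ENO2 (0.0287), GFPT2, an entry enzyme of the hexosamine branch, to HK1 (0.0457), and PGK1 to GPI (0.0374). PBLD lay nearest to GPI (0.0080), COX7C, a cytochrome oxidase subunit gene, to PGK1 (0.0122), CSNK1E to ENO1 (0.0159) and TMED4 to PKM (0.0113), and the nearest to ALDOA was AC093512.2, the row that overlaps it.

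The other 78 genes of the pathway lists were read in the same fits, in 8 lists. Their CPM are by library total and their log2 fold changes from the TMM-scaled fit, so the 2 differ in size. No gene of any list passed in hypertonic over isotonic libraries. The counts below stand beside 13.5% of all genes called lower and 9.61% called higher in rescue over isotonic, and 13.8% and 9.86% in rescue over hypertonic. Of 19 other enzymes of the glycolytic steps tested, 3 fell in rescue against isotonic cells, against 13.5% of all genes, and 1 rose, against 9.61%, with a median log2 fold change of -0.36 against -0.02 over all genes. Those that fell were PFKL (50.6 and 50.0 CPM in rescue, 82.4 and 66.3 CPM in isotonic cells, log2 fold change -0.85), LDHB (-0.53) and PGAM2, the muscle phosphoglycerate mutase (-0.99). The hexokinase-like gene HKDC1 rose by 1.95 on the log2 scale. It had 9.35 and 8.88 CPM in rescue libraries and 2.28 and 1.61 CPM in isotonic libraries, and is named although its mean was below 5 CPM. By library totals PFKL, LDHB and PGAM2 did not pass. The same 4 genes passed in the same directions in rescue against hypertonic cells.

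TIGAR, whose product lowers fructose-2,6-bisphosphate and so slows phosphofructokinase, rose. The rescue libraries had 171.4 and 172 CPM of TIGAR, against 35.9 and 46.6 CPM in hypertonic and 48.5 and 37.3 CPM in isotonic cells. Its log2 fold change was 1.71 ± 0.15 in rescue over isotonic (edgeR adjusted p = 0.00891), and none of the 4 PFKFB genes passed. A row on the same strand, AC008012.1, overlaps TIGAR over its whole length. Of the other list genes named here, LDHB overlaps AC010197.2 on the same strand, and AC005726.1 overlaps all exon bases of ALDOC on the same strand. Exons of GAPDH, TPI1, HKDC1, PFKM, PGAM2, FBP1, FBP2, PC, DLAT, MPC2, SHMT1 and SHMT2 are overlapped by a gene on the opposite strand. Reads of all these pairs may not be separated. Of 6 gluconeogenesis genes tested, 3 rose in rescue over isotonic, against 9.61% of all genes: PC, pyruvate carboxylase (75.5 and 72.5 CPM in rescue, 41.6 and 37.2 CPM in isotonic cells, 0.62), FBP2, a fructose-bisphosphatase (18.8 and 18.0 CPM in rescue, 6.83 and 3.65 CPM in isotonic cells, 1.54), and FBP1, which had at most 0.566 CPM and is named although its mean was below 5 CPM. None of the 6 fell. Whether the rise of low genes such as FBP1 and HKDC1 differed from that of other low rows in rescue was not tested. In rescue over hypertonic 2 of them passed, PC and FBP1, both higher. By library totals FBP2 did not pass.

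Of 14 genes of pyruvate dehydrogenase and pyruvate entry, 2 fell in both rescue comparisons, against 13.5% and 13.8% of all genes, and none rose. DLAT, the acetyltransferase subunit of pyruvate dehydrogenase, had 33.5 and 32.6 CPM in rescue, 53.5 and 65.1 CPM in hypertonic and 63.7 and 55.0 CPM in isotonic cells (log2 fold change in rescue over isotonic -1.14). MPC2, a subunit of the mitochondrial pyruvate carrier, had 16.4 and 16.9 CPM in rescue, 27.8 and 25.0 CPM in hypertonic and 26.1 and 27.3 CPM in isotonic cells (-0.98). Both kept their calls under upper quartile scaling and by library totals.

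Of 9 pentose phosphate genes TKT, transketolase, fell in both comparisons (-0.50 in rescue over isotonic) and PGD in rescue over hypertonic alone (-0.50, adjusted p = 0.0488, against 0.0671 in rescue over isotonic, edgeR). Of 5 genes of the serine branch SHMT1 fell in both (-0.72 in rescue over isotonic) and SHMT2 in rescue over hypertonic (-0.54), and under upper quartile scaling or by library totals neither passed, nor did TKT and PGD. Of 7 genes of the polyol, glycerol and hexosamine branches GFPT2 fell in both, with 47.7 and 47.0 CPM in rescue, 95.7 and 73.9 CPM in hypertonic and 75.4 and 96.0 CPM in isotonic cells, but it did not pass under these other scalings. GPD1 rose in rescue over hypertonic, at no more than 1.29 CPM, and is named although its mean was below 5 CPM.

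Of 10 glycogen genes, 3 fell and 1 rose in both rescue comparisons. UGP2, which makes UDP-glucose, had 93.9 and 99.7 CPM in rescue, 153 and 158 CPM in hypertonic and 159 and 151 CPM in isotonic cells (-0.97 in rescue over isotonic), and GYS1 (-0.59) was another of the 3 that fell. PPP1R3C, which targets protein phosphatase 1 to glycogen, rose. The rescue libraries had 77.4 and 73.1 CPM of PPP1R3C, against 5.67 and 4.29 CPM in hypertonic and 4.84 and 6.16 CPM in isotonic cells, a log2 fold change of 3.47 ± 0.30 in rescue over isotonic (edgeR adjusted p = 0.00911). GYS1 did not pass by library totals, and UGP2 and PPP1R3C did.

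**Figure D5:**
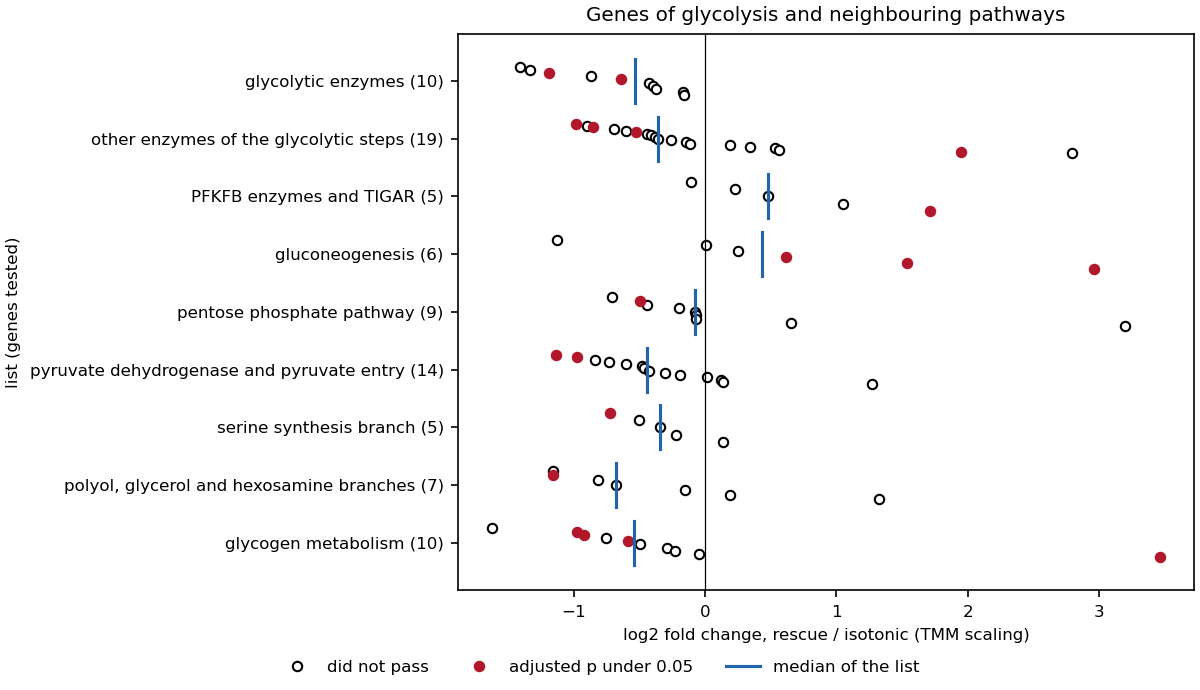
Log2 fold change, rescue over isotonic with TMM scaling, of the genes tested in each list (number in brackets); filled points passed at an adjusted p under 0.05, open points did not, and blue bars are list medians. The 10 enzymes all lie below 0, and the farthest called point to the right is PPP1R3C at 3.47.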

How the data were processed

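The files deposited by the authors, 1 for each library, hold unnormalized counts of reads for each gene. Per the labels' protocols, total RNA was depleted of ribosomal RNA, and strand synthesis was followed by uridine digestion, which marks the strand. Per the submitters' processing notes, bcl2fastq, TopHat2, Bowtie2 and bedtools were used with GRCh38 (hg38). Whether counting used the strand or included introns is not given in the sources used here. Totals of 90196278 to 105991428 counts put 3 counts at 0.0283 to 0.0333 CPM.

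Groups followed the sample titles. CPM used library totals except where TMM-scaled CPM is named. One edgeR 4.0.16 quasi-likelihood model (R 4.3.3, filterByExpr, TMM, robust) was fitted to all 6 libraries with a mean per group, over 18208 genes (common dispersion 0.148, 3 residual degrees of freedom), two-sided, with Benjamini-Hochberg adjustment and a threshold of 0.05. It was run on simulated counts, where recovery of known fold changes was required only at a dispersion far below 0.148. Its power at the dispersion of these data is not given here. With 2 libraries against 2, an exact permutation test cannot go below 0.333, so none is given. The alternatives were DESeq2 1.42.0, limma 3.58.1 (voom), other scalings, no filter, fewer libraries, a block by replicate number, and both libraries of one number left out of the isotonic and hypertonic groups. Coordinates came from GENCODE release 29 and promoter windows from RefSeq (GRCh38.p14). Motifs were searched on both strands.

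The 10 enzymes, the pathway lists and the markers were chosen with earlier results of these data known. Named were all 10 enzymes, GAPDH, TPI1 and the osmotic genes; per list, up to 4 genes per direction with the largest fold change among those that passed and averaged 5 CPM or more; and per enzyme the most similar gene. The 33 names on more than 1 row were not named. A few genes that these rules select are not reported here.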

Additional observations from a re-analysis of the deposited data

How the results depend on the processing

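Of 300 refits of single enzymes in the 2 rescue comparisons, 224 kept direction and call, 39 kept direction and gained a call, 28 kept direction and lost it, and 9 changed direction. Those 9 were ALDOA or PKM. In rescue over isotonic ALDOA was 0.0443 (log2) with upper quartile scaling, 0.133 by library totals, 0.0359 without isotonic 2 and hypertonic 2, and -0.3541 to 0.0355 with 1 library left out, positive without isotonic 2; PKM was 0.0543 with upper quartile scaling and 0.138 by library totals. In rescue over hypertonic ALDOA was 0.0864 by library totals, and PKM 0.0191 and 0.112 under these scalings. The scalings differ by construction in the median of all genes.

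In hypertonic over isotonic, enzymes called numbered 9 without isotonic 2 and hypertonic 2 and 8 without isotonic 1 and hypertonic 1, and genes called 11841 and 11776. DESeq2 called 1 gene, and leaving out 1 library gave 0 genes and 0 enzymes each time. Without isotonic 1 and hypertonic 1, HK1 was -0.40, PFKP -1.03, ALDOA -0.35, ENO1 -0.27, PKM -0.17 and LDHA -0.42. Without isotonic 2 and hypertonic 2, HK2 was 0.93, GPI 0.19 and PGK1 0.23. LDHA was -0.0013 by DESeq2 and -0.0066 by library totals. With 1 library left out, the values ran from -0.1993 to 0.2893 for HK1, -0.6025 to 0.53 for HK2, -0.1028 to 0.0938 for GPI, -0.6093 to 0.6113 for PFKP, -0.1671 to 0.2622 for ALDOA, -0.1363 to 0.1214 for PGK1, -0.1386 to 0.1689 for ENO1, -0.0818 to 0.1431 for PKM and -0.2274 to 0.2178 for LDHA.

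Deviations from the group mean correlated at -0.905 between isotonic and hypertonic libraries of one number. With rescue they correlated at 0.038 for hypertonic and -0.025 for isotonic libraries. With 2 libraries per group the -0.905 restates the crossed profiles. While those labels are in doubt it cannot show whether the replicate numbers pair the samples. With the replicate block 0 genes and 0 enzymes were called in both rescue comparisons, and PFKP was -0.0057 and LDHA -0.0068 in hypertonic over isotonic. A block of the crossed pairs, added after seeing the data, called 21 genes in hypertonic over isotonic, 6 higher and 15 lower.

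In rescue over isotonic, genes called (4202) became 7041 by DESeq2, 14591 without isotonic 2 and hypertonic 2, 14898 without isotonic 1 and hypertonic 1, and 0 to 3460 with 1 library left out. Enzymes called (2) became 6 by DESeq2, 0 with upper quartile scaling, 1 by library totals, 8 and 10 in the fits without a number, 1 with ENO2 set aside, and 0 to 1 with 1 library left out. In rescue over hypertonic, genes called (4304) became 7105, 15027, 14586 and 0 to 3691, and enzymes called (2) became 6, 1, 1, 10, 8, 1 and 0 to 2, in the same order. The cause was not tested. Depth limits a single value of these genes by a counting error of at most 1.93%.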
